A study of Arabidopsis thaliana with 6 samples.

Results

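Skipping of 2 or more neighbouring exons in a single splicing step was examined in rosette leaf RNA of Arabidopsis thaliana. An event was kept when the deposited skipping table listed a junction from one exon to another with at least 2 exons between them, and when its skipping and inclusion reads together reached 10 in each of the 6 libraries. This left 2610 events in 1922 genes, out of 12382 skipping events of any size with the same read minimum. The other 9772 skip 1 exon. The table listed 2701 such multi-exon events, of which 91 fell under the minimum. The 4 events whose lowest library total was exactly 10 had a median of 2.5 skipping reads over the 6 libraries, and the 8 events at 9, just outside, had a median of 5.

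The libraries came from 2 genotypes with 3 libraries each. One is the accession Col-0, the wild type, and the other is the double mutant mac3a mac3b in which both MAC3 genes are affected. Seeds of both were kept cold in the dark before sowing. All plants were 40 days old and vegetative, and were grown at 22 °C with 8 h of light and 16 h of darkness a day. The study asked how loss of MAC3A and MAC3B bears on early flowering in short days. The labels do not say whether a library holds 1 plant or a pool, so p-values measure only the spread between these libraries. They give a single mutant combination, so an effect of the alleles and of that line cannot be told apart.

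MAC3A and MAC3B are the plant counterparts of yeast Prp19, the core of a complex that joins the spliceosome and helps hold it in its active form. During splicing, exons are normally recognised and joined in order, and an exon is skipped when its sites are passed over and a more distant pair of sites is used. When several exons are lost together, the reading frame survives only if their summed coding length is a multiple of 3. In plants, retention of introns is the more common outcome when splicing is disturbed, and skipping of exons is rarer.

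Exons are numbered here from the 5′ end of the gene model, and sequences and positions are those of RefSeq assembly TAIR10.1 (the submitters' notes name TAIR10, and the deposited tables hold no positions). The exon numbers of the table follow the chromosome and were placed by matching intron lengths, which succeeded for 2522 of the 2610 events. The junctions below belong to the 5 events that had at least 3 skipping reads in each mutant library and none in Col-0, with FBA2, the paralog of FBA1, beside them for comparison. Each line joins the last bases of the upstream exon, in lower case, to the first bases of the downstream exon, in capitals. Whether the reads joined exactly these ends was not resolved in the data used here. In all 6 the bases that follow the upstream exon are GT, and those just before the downstream exon are AG.
FBA1: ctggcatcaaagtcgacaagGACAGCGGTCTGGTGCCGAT
FBA2: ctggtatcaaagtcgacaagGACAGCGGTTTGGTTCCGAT
CSP41A: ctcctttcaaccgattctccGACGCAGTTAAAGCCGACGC
SNZ: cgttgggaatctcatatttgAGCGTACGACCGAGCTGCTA
AT1G13820: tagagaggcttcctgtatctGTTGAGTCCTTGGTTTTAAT
BGLU8: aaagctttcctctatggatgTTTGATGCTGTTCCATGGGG

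FBA1 (AT2G21330) lost exons 3 and 4 together, which lie at chr2:9129133-9129425 on the minus strand and hold 110 and 91 bases. FBA2 (AT4G38970) lost the exons in the same place, exons 3 and 4 of the same lengths, at chr4:18164558-18164858 on the minus strand. Both stretches are coding and 201 bases long, a multiple of 3. They are shown because the values of the same stretch differ between the paralogs. Capitals mark the 32 positions at which they differ, and they are 84.1% identical, with identical runs of up to 23 bases.
FBA1: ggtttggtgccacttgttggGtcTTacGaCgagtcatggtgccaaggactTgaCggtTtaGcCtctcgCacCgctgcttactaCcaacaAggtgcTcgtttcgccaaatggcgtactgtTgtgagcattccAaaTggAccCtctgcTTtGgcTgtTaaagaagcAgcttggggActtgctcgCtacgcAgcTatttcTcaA
FBA2: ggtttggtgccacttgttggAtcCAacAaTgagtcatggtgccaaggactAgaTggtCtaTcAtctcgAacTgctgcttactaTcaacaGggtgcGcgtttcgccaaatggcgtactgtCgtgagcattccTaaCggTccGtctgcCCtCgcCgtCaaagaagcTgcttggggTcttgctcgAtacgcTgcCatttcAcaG

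The libraries held 80626787 to 108909613 unique reads over the 13069 genes with such counts. The leaf markers RBCS1A, RCA, LHCB2.1 and CAB1 were abundant, from 582 to 21007 RPKM (reads per kilobase of gene, scaled to library depth). RCA and LHCB2.1 were higher in every mutant library than in any Col-0 library, while RBCS1A and CAB1 overlapped between the genotypes. The root markers RHD6 and CASP1, the flower markers AP3 and PI and the seed marker CRA1 did not exceed 0.1 RPKM. The flower gene AG had 0.32 to 0.64 in Col-0 and 1 to 1.05 in the mutant, with no overlap. Of the mutated genes, MAC3A had a mean of 19.6 RPKM in Col-0 and 7.03 in the mutant, and MAC3B 40.3 and 7.41, with no overlap between the groups. Mutant replicate 3 stood apart in skipping: 1461 of the 2610 events had a skipping read in it, against 852 and 590 in mutant replicates 1 and 2 and 505 to 586 in the Col-0 libraries. Results that rest on it are therefore given with and without it.

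Most members were rare. A member had a median of 2 skipping reads over the 6 libraries, 1290 had a single read in all, and 307 had at least 10. Because the table lists an event only where some library had a skipping read, a library rich in such reads brings in events of its own. Of 1853 members seen in 1 library only, 859 were seen in mutant replicate 3, 327 in mutant replicate 1, 165 in mutant replicate 2, and 143 to 201 in each Col-0 library. Skipping of 2 exons made up 1714 members, 3 exons 461 and 4 exons 194, and the longest skip passed over 23 exons. In 437 genes there were 2 or more members, up to 8 in a gene, and 877 members share exons with another member of their gene, so members are not independent of each other.

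The annotation divided the members into groups of unlike kind. In 120 members an annotated transcript already joins the outer exons directly, and these held 81.8% of all skipping reads. In 2059 members the skipped exons are part of every annotated transcript that spans the stretch, and these constitutive stretches held 3.06% of the skipping reads. A further 343 members fit neither description and 88 were not placed. The skipping share (skipping reads as a percentage of skipping plus inclusion reads, summed over a group) was 48.7% ± 2.81 in Col-0 for the annotated junctions and 0.00734% ± 0.00114 for the constitutive stretches (SD, n = 3). How inclusion reads were counted over several exons is not given in the sources used here, so levels are compared between libraries and not between events of different size.

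Many annotated junctions were the usual form of their gene in these leaves. Of the 120, 66 had a mean Col-0 share above 50%, 47 above 95% and 32 below 5%. GS2 (AT5G35630), which encodes the chloroplast glutamine synthetase, alone held 25.6% of all skipping reads. Its exons 2 and 3 are first exons of other annotated transcripts, and joining of exons 1 and 4 had shares of 99.6%, 99.3% and 99.3% in Col-0 and 99.6%, 99.3% and 99.7% in the mutant. The calmodulin gene CAM1 (AT5G37780), whose product senses calcium, followed with 9.98% of the skipping reads and shares from 99.6% to 99.9% in the 6 libraries. In both genes the genotypes overlapped. Among members with at least 60 skipping reads, 28 tied at a mean Col-0 share of 100%, and 22 of them had no inclusion read in any library. The 8 named by the rule are an arbitrary draw from this tie and include ATG8D, an autophagy protein, LSM8, a core protein of the U6 snRNP, and RPL18AA, a ribosomal protein. ATG8D had 570, 872 and 948 skipping reads in Col-0 and 307, 549 and 476 in the mutant, LSM8 had 232 to 260 and 148 to 228, and RPL18AA had 379 to 392 and 222 to 352. With a share of 100% in each library, no change in share could be seen in them.

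Summed over all 2610 members, the difference in share was within the spread between libraries. The share was 0.338%, 0.386% and 0.496% in Col-0 and 0.332%, 0.323% and 0.398% in the mutant, and the groups overlapped (exact permutation test, two-sided, p = 0.4, where 3 against 3 cannot go below 0.1). Within same-numbered pairs the mutant was lower in 3 of 3 (exact sign-flip p = 0.25, the smallest that 3 pairs allow). Most skipping reads of this sum came from annotated junctions. Most inclusion reads came from constitutive stretches, 12316565 of 13300129 in Col-0 replicate 1. Like every sum over genes, it also moves with gene expression and is no pure measure of splicing. CAM1 had 4510, 6241 and 6208 skipping reads in Col-0 and 1673, 3328 and 2856 in the mutant, with overlapping shares. The annotated junctions had 49.6%, 50.9% and 45.5% in Col-0 and 50.8%, 48.4% and 57.2% in the mutant (p = 0.5, same exact test). Mutant replicate 3 was the highest library and the other mutant libraries lay within Col-0. The 13 members whose skipped exons are all alternative first exons had 93.2% ± 1.02 in Col-0 and 94.0% ± 1.23 in the mutant, and the 63 with internal exons had 34.9% ± 2.08 and 37.1% ± 2.84 (n = 3, SD), differences within the spread.

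Skipping of constitutive stretches was higher in mutant replicates 1 and 3 than in any Col-0 library. The summed share was 0.00703%, 0.00638% and 0.00861% in Col-0 and 0.0133%, 0.0074% and 0.0345% in the mutant. Mutant replicate 2 lay inside the Col-0 range and mutant replicate 3 far above all other libraries. The ratio of the means was 2.51 with all libraries, and 1.41 without mutant replicate 3 (exact permutation test with all libraries, two-sided, p = 0.2). Within same-numbered pairs the mutant was higher in 3 of 3 (exact sign-flip p = 0.25). Without the members in FBA1 the ratio was 2.39. Reads behind these shares were few, 692 to 866 skipping reads in a Col-0 library and 1178, 805 and 3345 in the mutant libraries, against 8040724 to 12316565 inclusion reads.

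**Figure D1:**
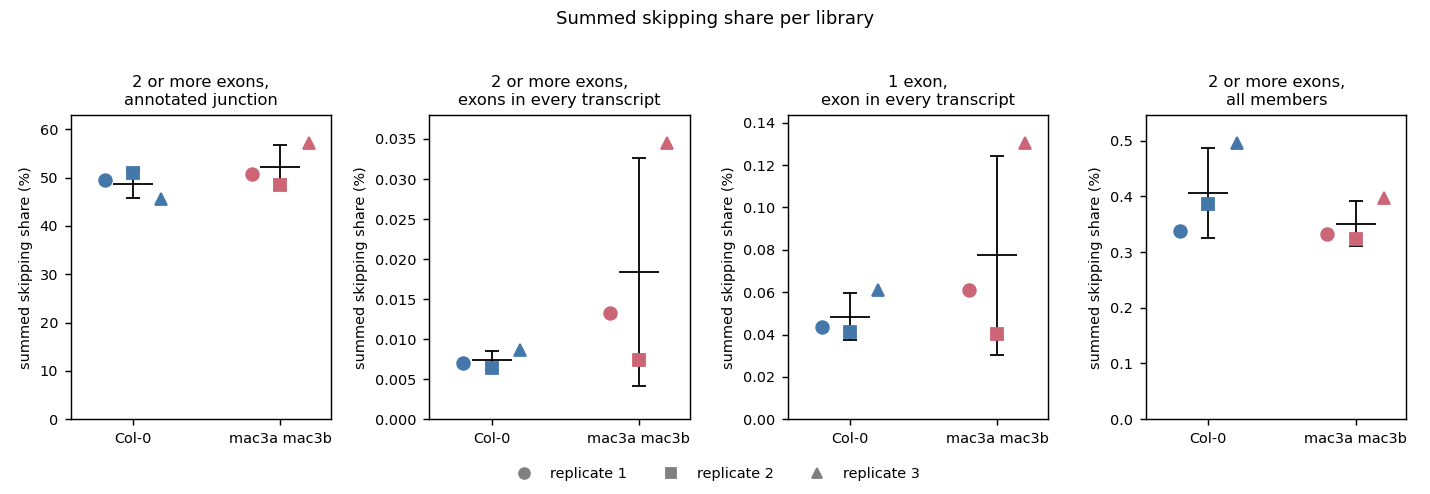
Summed skipping share in percent for each library (y axis, starting at 0; Col-0 in blue, mac3a mac3b in red, symbols by replicate number), with the mean as a long bar and the SD of 3 libraries as the error bar. The mutant points overlap Col-0 in every panel, and mutant replicate 3 is the highest point in the 3 panels of annotated junctions, constitutive stretches and single constitutive exons.

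Single constitutive exons gave a measure of the same libraries against which multi-exon skipping could be set. Their summed share was 0.0434%, 0.0410% and 0.0611% in Col-0 and 0.0612%, 0.0404% and 0.130% in the mutant, with a ratio of 1.60, or 1.05 without mutant replicate 3. The log2 ratio of the multi-exon to the single-exon share was -2.63, -2.68 and -2.83 in Col-0 and -2.20, -2.45 and -1.92 in the mutant. Every mutant library was above every Col-0 library. The mutant mean was higher by 0.52 on the log2 scale (exact permutation test, two-sided, p = 0.1, the smallest that 3 against 3 allows). Without mutant replicate 3 the difference was 0.39, and without the FBA1 events it was 0.47. Over all events, annotated junctions included, the mutant minus Col-0 difference in this ratio was -0.12 on the log2 scale (p = 0.2, exact permutation test), and the groups overlapped. Both shares in that ratio also move with the expression of the genes with annotated junctions. The division by annotation was made after the data had been seen.

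The mutant mean was above the Col-0 mean for each number of skipped exons, and the groups did not overlap for 3 and 4. For constitutive stretches of 2 exons the summed share had a Col-0 mean of 0.0108% ± 0.00197 and a mutant mean of 0.0262% ± 0.0212 (SD, n = 3), and the groups overlapped. For 3 exons it was 0.00331%, 0.00292% and 0.00358% in Col-0 and 0.00687%, 0.00431% and 0.0171% in the mutant. For 4 exons it was 0.00252%, 0.00201% and 0.00301% in Col-0 and 0.00628%, 0.00397% and 0.0111% in the mutant (exact permutation p = 0.1 for each, 4 sizes compared, Benjamini-Hochberg adjusted p = 0.2 by the same exact tests). Without mutant replicate 3 the ratios were 1.31 for 2 exons, 1.71 for 3, 2.04 for 4 and 1.72 for 5 or more. For 5 or more exons mutant replicate 2, at 0.00233%, lay inside the Col-0 range of 0.00221% to 0.00415%. The 3-exon and 4-exon values rest on 61 to 86 and 27 to 37 skipping reads in a Col-0 library.

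**Figure D2:**
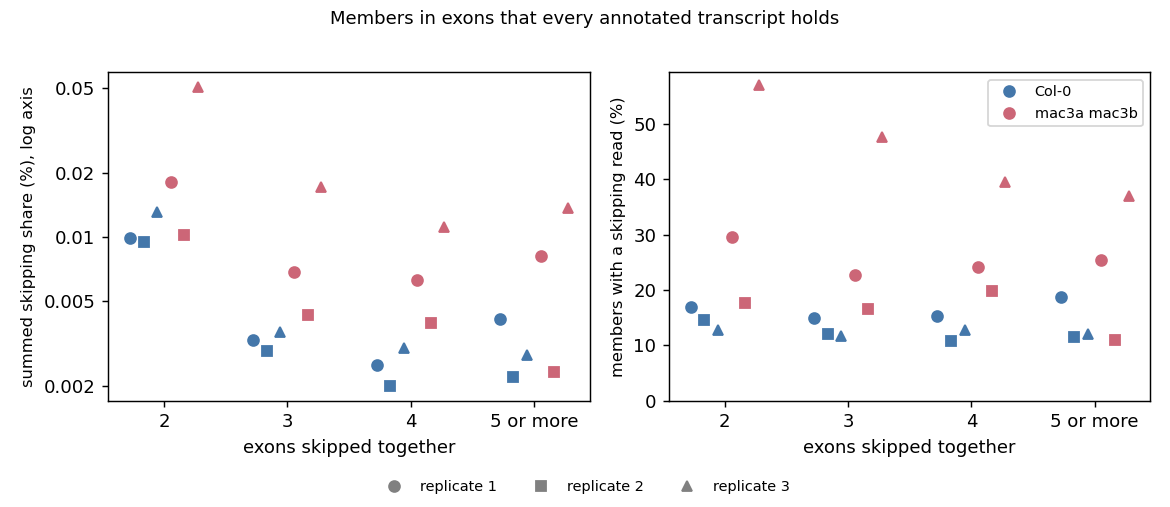
Constitutive stretches by the number of exons skipped together (x axis): the summed skipping share in percent on a log axis at left, and the percentage of members with at least 1 skipping read at right, 1 point per library (blue Col-0, red mac3a mac3b). Mutant replicate 3 is highest in every column, at 57.0% of the 2-exon members with a read against 12.9% to 17.0% in Col-0.

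Member by member, a single event passed. In the edgeR quasi-likelihood test of skipping against inclusion reads by genotype, fitted over all 12382 events, 1 of 2610 members had a Benjamini-Hochberg adjusted p under 0.05, higher in the mutant, against 0.0162% of all events called higher. At an unadjusted p under 0.05 there were 86 members higher and 1 lower, 3.30% and 0.0383% of the members, beside 3.92% and 0.137% of all events. In 72 of the 86, mutant replicate 3 had the most skipping reads. By limma on log2 ratios 9 members passed, all with a positive change, against 0.598% of all events. They were FBA1, CSP41A, SNZ, AT1G13820, BGLU8, UGT80B1, AT3G07760, AT5G35170 and JMJD5. JMJD5 had 0 skipping reads in the mutant and 1 in Col-0, with inclusion reads of 329, 689 and 933 in Col-0 and 23, 30 and 26 in the mutant, so its positive log2 ratio comes from the pseudocount over fewer inclusion reads and not from skipping. Among the 307 members with at least 10 skipping reads, 44 (14.3%) had all mutant shares above all Col-0 shares and 14 (4.56%) the reverse, against 13.3% and 3.56% of all events with as many reads. Without mutant replicate 3, 46 of the 307 had both remaining mutant shares above Col-0 (15%), against 400 of 2750 events (14.5%). These shares are near the background and set the members apart from skipping events in general in no direction.

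Of 108 constitutive members with 10 or more skipping reads, 94 had a higher mean share in the mutant, and 75 without mutant replicate 3. For single constitutive exons the counts were 993 and 696 of 1253. The minimum of 10 reads, here and above, was summed over all 6 libraries, so events could enter through the library where they were high. The highest share was in mutant replicate 3 for 79 of the 108 and 862 of the 1253. The counts of direction and of separation are thus partly set by this choice and are no test. In 23 of the 108 (21.3%) all mutant shares exceeded all Col-0 shares, and in 4 the reverse, beside 208 of 1253 single constitutive exons (16.6%) and 13.3% of all events in the first direction. With at least 60 skipping and 60 inclusion reads, 81 members remained, with a median log2 change of 0.55, beside 0.37 over all 769 such events. Without mutant replicate 3 the medians were 0.23 and 0.02. None of the 81 passed in that edgeR fit, where 9 had an unadjusted p under 0.05, all of them higher (11.1%). Over all 769 events 1.04% were called, and 82 (10.7%) were higher at an unadjusted p under 0.05. With the replicate number as a block 1 of 81 passed, against 2.6% of all.

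FBA1, a chloroplast fructose-bisphosphate aldolase of the Calvin cycle, was the event that passed. Exons 3 and 4 were skipped in 0, 0 and 0 reads in Col-0 and in 35, 17 and 213 reads in the mutant, beside 26819 to 42930 inclusion reads per library. The shares in the mutant were 0.109%, 0.0567% and 0.494%. No Col-0 library held a read and every mutant library did, with mutant replicate 3 the highest. A count of 0 in 91968 Col-0 reads allows a share of up to 0.00326% (3 counts over the group, counting error only), so the mutant mean of 0.220% ± 0.239 (SD, n = 3) was at least 67.4-fold higher, and without mutant replicate 3 at least 25.4-fold. The edgeR adjusted p was 0.00638, and 0.0446 without mutant replicate 3. It was 0.0845 in the fit over events with 60 reads of each kind, and from 0.263 to 0.692 without any 1 of the Col-0 libraries or mutant replicate 1, where the call was lost.

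Other skips of FBA1 had a different pattern. Loss of exon 4 alone, joining exons 3 and 5, had 9, 1 and 8 reads in Col-0 and 6, 0 and 152 in the mutant. Mutant replicate 3 was far above the others, the remaining libraries overlapped, and the event did not pass (edgeR adjusted p 0.624). Loss of exon 3 alone, joining exons 2 and 4, had 1 read, in mutant replicate 1. The 3 introns between exons 2 and 5 were retained more in the mutant. Retention, the intron depth as a share of intron plus exon depth, was at most 0.673% in Col-0 and from 0.186% to 3.69% in the mutant, with log2 changes of 2.03 to 2.43 (limma adjusted p 0.0129 to 0.0314). With the replicate block the intron between exons 2 and 3 no longer passed (adjusted p 0.0574). The FBA1 transcript level was 625, 518 and 809 RPKM in Col-0 and 902, 659 and 1257 in the mutant, a difference that did not pass (limma adjusted p 0.684, and 0.281 with the replicate block).

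FBA2, also a chloroplast aldolase, gave no such difference. Its inner exons are close in sequence to those of FBA1, so how reads were divided between the genes by the authors' counting is uncertain. Its exons 3 and 4 were skipped in 11, 1 and 4 reads in Col-0 and in 4, 4 and 2 in the mutant, with 40234 to 63997 inclusion reads per library. The shares were 0.018%, 0.00202% and 0.00994% in Col-0 and 0.00625%, 0.00743% and 0.00322% in the mutant. The groups overlapped, and the log2 change of -0.71 did not pass (edgeR adjusted p 0.700). The difference between the paralogs was not tested. Retention of the 3 introns between exons 2 and 5 rose in FBA2 too, with log2 changes of 1.88 to 2.84 (limma adjusted p 0.00172 to 0.00691).

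A further 4 events had at least 3 skipping reads in each mutant library and none in Col-0, and they were singled out after their values had been seen. That choice fixed the 0 in Col-0, so their separation is no result, and folds over the Col-0 limit are partly set by it. CSP41A (AT3G63140), a chloroplast RNA-binding protein, lost exons 2 and 3 (225 coding bases, a multiple of 3) at chr3:23327822-23328148 on the minus strand, in 15, 5 and 18 mutant reads. Its mutant shares were 0.162%, 0.0383% and 0.147%, at least 17.9-fold above the limit in Col-0 (edgeR adjusted p 0.269). AT1G13820, a member of the alpha/beta-hydrolase family, lost exons 2 to 5 (339 coding bases, a multiple of 3) at chr1:4736054-4736638 on the plus strand, in 13, 4 and 4 reads (adjusted p 0.614). BGLU8 (AT3G62750), a beta-glucosidase, lost exons 9 and 10 (256 coding bases, not a multiple of 3) at chr3:23215854-23216194 on the plus strand, in 3, 4 and 3 reads (adjusted p 0.614). The mutant shares were 0.856%, 0.279% and 0.312% in AT1G13820 and 0.229%, 0.130% and 0.418% in BGLU8. By share, mutant replicate 1 was the highest library in CSP41A and AT1G13820, and mutant replicate 3 in BGLU8.

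SNZ (AT2G39250), also named SCHNARCHZAPFEN, encodes an AP2-type repressor of flowering and is the member of this set nearest to the study's question. Its exons 2 and 3, at chr2:16390274-16390472 on the minus strand, are 26 and 31 bases long, and both were skipped in 13, 3 and 28 mutant reads and in 0 Col-0 reads. The 57 bases are printed with the second of the exons in capitals.
SNZ: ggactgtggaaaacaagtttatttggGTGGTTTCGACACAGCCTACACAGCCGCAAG

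The SNZ shares were 0.952%, 0.409% and 8.51% in the mutant, and a count of 0 in 2981 Col-0 reads allows up to 0.101%. The mutant mean of 3.29% ± 4.53 (SD, n = 3) was at least 32.7-fold higher, and without mutant replicate 3 at least 6.77-fold. These limits cover counting error only, and SNZ was chosen for its 0 in Col-0, so they are no test of a change. Inclusion reads were 1118, 733 and 1130 in Col-0 and 1352, 730 and 301 in the mutant, lowest in mutant replicate 3. The event did not pass (edgeR adjusted p 0.350). Retention of the intron between exons 1 and 2 rose, from 3.14%, 1.71% and 0.726% retained in Col-0 to 14.4%, 13.8% and 21.8% in the mutant (limma adjusted p 0.00202). Retention of the intron between exons 2 and 3 rose too, from 3.30% to 6.15% in Col-0 to 12.6% to 19.6% in the mutant (adjusted p 0.00866). That of the intron between exons 3 and 4 was 7.77% to 10.2% in Col-0 and 12.5% to 20.8% in the mutant and did not pass (adjusted p 0.08). The SNZ transcript level was 17.8 to 30.8 RPKM in Col-0 and 30.8 to 72.2 in the mutant (limma adjusted p 0.582).

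**Figure D3:**
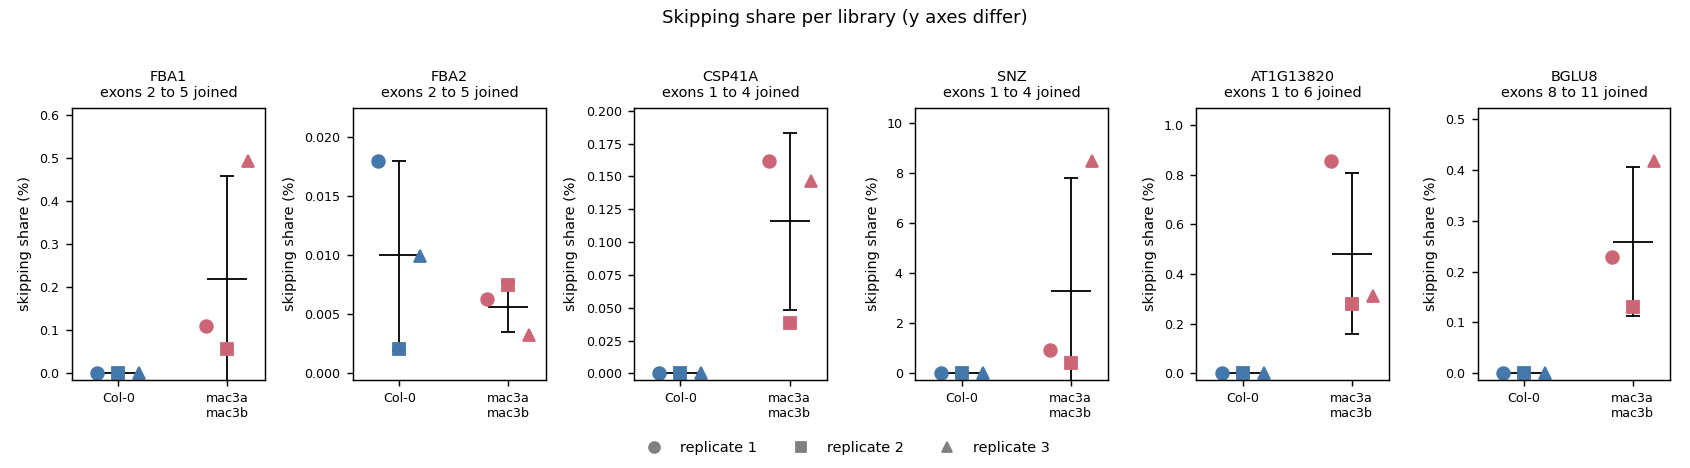
Skipping share in percent per library (y axes differ between panels; blue Col-0, red mac3a mac3b, symbols by replicate number; mean and SD of 3 libraries, the error bars cut at the lower axis limit) for the 5 events without a Col-0 read and for FBA2. In the 5 panels of FBA1, CSP41A, SNZ, AT1G13820 and BGLU8 every Col-0 point is at 0, while the FBA2 points overlap.

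Skipping reads in all 3 mutant libraries and in no Col-0 library were found for 30 members (1.15%), against 1.38% of all 12382 events. The reverse was found for 2 members, against 0.339% of all events. With at least 2 reads in each library the counts were 8 (0.307%) and 1 (0.0383%), against 0.380% and 0.0727% of all events. Reads in mutant replicates 1 and 2 and in no Col-0 library, whatever mutant replicate 3 held, were found for 48 (1.84%), against 283 of all events (2.29%). These shares of the members lie below those of all events.

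The members whose groups differed most in percentage points ranged from 13 skipping reads over the 6 libraries, in AT3G24360, to 1278, in LACS1. By the naming rule these were the 10 largest differences among members without overlap. TBL16 (AT5G20680), of the TRICHOME BIREFRINGENCE-LIKE family, was not placed on the annotation and had shares of 23.1%, 17.1% and 22.4% in Col-0 and 39.8%, 35.2% and 56.3% in the mutant. LACS1 (AT2G47240), a long-chain acyl-CoA synthetase of the cuticular wax pathway, had an annotated choice of first exons, with 69.9%, 61.8% and 62.0% in Col-0 and 81.4%, 77.9% and 78.1% in the mutant. AT4G17310, an uncharacterized protein, had 24.9% to 31.8% in Col-0 and 45.8% to 57.6% in the mutant. Intron 1 of the deposited model is 1 base long in AT4G17310 and 8 bases in LACS1. Intron 2 of TBL16, between the skipped exons, is 38 bases long. Whether 2 separate exons are skipped in these genes is therefore uncertain. Of the listed AT4G17310 junction reads, 245 had an end shifted from the deposited model and 64 joined the exon ends of that model. None of TBL16, LACS1 and AT4G17310 passed, with edgeR adjusted p of 0.614 for each.

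Among constitutive stretches named by the same rule, AT3G58530, an RNI-like superfamily protein, had 4.33%, 1.19% and 0.783% in Col-0 and 9.43%, 5.18% and 34.1% in the mutant. Its inclusion reads were 287 to 380 in Col-0 and 192, 238 and 54 in the mutant. The embryo-defective gene emb1579 (AT2G03150) had the most skipping reads of any constitutive stretch, with 14.5%, 23.0% and 16.0% in Col-0 and 24.0%, 23.1% and 43.2% in the mutant. NUDT22, a nudix hydrolase, had 1.23%, 1.04% and 2.11% in Col-0 and 10.98%, 2.82% and 32.0% in the mutant, and AT1G11270 had 10.6% to 21.5% and 22.9% to 33.3%. The rule chose events without overlap, so that separation is no result. Mutant replicate 3 was the highest library in each of these 4, and none passed (adjusted p 0.614). The remaining 3 of the 10 had annotated junctions. AT2G39950 had the largest difference of the 10, with 45.8%, 36.7% and 27.3% in Col-0 and 63.2%, 46.1% and 86.9% in the mutant, 28.8 percentage points between the means and 18.0 without mutant replicate 3. AT5G17530 had 19.7% to 31.0% and 33.3% to 36.9%, and AT3G24360, with 13 skipping reads in all, 0% to 3.45% and 6% to 33.3%. None passed (edgeR adjusted p 0.614 to 0.678).

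The other constitutive stretches with most reads were listed by read number after their values had been seen. After emb1579 and FBA1 came AT1G58602, a disease resistance gene of the NB-ARC type, with 0.665% to 1.57% in Col-0 and 1.04% to 4.73% in the mutant. PLA2-ALPHA (AT2G06925), a secreted phospholipase A2, lost exons 2 and 3 in 1.52%, 0.738% and 1.53% of reads in Col-0 and 1.82%, 0.572% and 10.5% in the mutant, where mutant replicate 3 alone stood out. PHO2 (AT2G33770), the ubiquitin-conjugating enzyme of phosphate homeostasis, had 0.512% to 0.943% in Col-0 and 0.842% to 1.27% in the mutant. In HOL1 (AT2G43910), loss of exons 5 and 6 had 0.193% to 0.336% in Col-0 and 0.0716% to 0.670% in the mutant. These genes overlapped between the genotypes, as did AT3G23255 and AT1G34340, next in reads. AT5G38290, of the peptidyl-tRNA hydrolase family, lost exons 2 and 3 in 1.01%, 0.211% and 0.647% in Col-0 and 3.87%, 3.28% and 6.11% in the mutant, with no overlap. Of its listed junction reads, 49 had 1 end shifted by 5 bases, 24 of them in mutant replicate 3. Only 26 joined the exon ends of the deposited model. APL1 (AT5G19220), a large subunit of the ADP-glucose pyrophosphorylase of starch synthesis, lost exons 8 and 9 in 0.0950%, 0.0264% and 0.0982% in Col-0 and 0.293%, 0.144% and 0.894% in the mutant, also with no overlap. None of these 8 genes' events passed, with edgeR adjusted p of 0.614 to 0.917.

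With at least 10 skipping reads, no skip passed over more than 5 exons, and the 5 that passed over 5 lay in AT3G27990, HOL1, CA2, TPS1 and AT3G05350. AT2G26840, also named by the rule, is 1 of 8 tied at 4 exons. AT3G27990, an RNA gene of unspecified kind in the annotation, had 6, 2 and 1 reads in Col-0 and 0, 0 and 3 in the mutant, with mean shares of 0.781% and 0.521% and overlapping groups. CA2, a carbonic anhydrase, lost exons 4 to 8 of its model (456 coding bases, a multiple of 3) in 0, 2 and 0 Col-0 reads and 6, 0 and 2 mutant reads. TPS1, trehalose-6-phosphate synthase, had 2, 1 and 0 reads in Col-0 and 8, 4 and 6 in the mutant, with no overlap, and did not pass (edgeR adjusted p 0.614). In HOL1 10 of 12 reads, and in AT3G05350 11 of 17, came from mutant replicate 3. Without it the share differences, mutant minus Col-0, moved from 0.0901 to 0.00749 percentage points in HOL1 and from 0.314 to 0.0140 in AT3G05350.

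The gene lists held few deep members. Of 19 SR protein genes, which encode splicing regulators, 5 had a member. SR34 joined exons 10 and 13 of the table in 69.3%, 61.5% and 77.9% of reads in Col-0 and 70.3%, 53.8% and 80.8% in the mutant, overlapping fully. Intron 12 of its deposited model is 2 bases long, so the number of exons skipped there is uncertain. The other 4, SCL30A, SR34a, SR34b and RS41, had at most 4 skipping reads. Of 10 MAC and NTC complex genes 1, PRL1, had a member, with 1 read. Of 24 Calvin cycle and photorespiration genes 14 had 62 members, all of them constitutive stretches, and only FBA1, FBA2 and GGT1 reached 10 reads in 1 event. GGT1, the peroxisomal glutamate:glyoxylate aminotransferase, overlapped between the genotypes, at 0.0213%, 0.0327% and 0.0372% in Col-0 and 0.0349%, 0.0386% and 0.0350% in the mutant.

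Flowering and clock genes were mostly at 1 or a few reads. Of 20 flowering genes 8 had 10 members, and of 16 clock genes 5 had 9, with 0 passing in either list. FLM (AT1G77080, named MAF1 in RefSeq), a MADS-box repressor of flowering whose splicing is the subject of the study, had 1 member, which joined exons 1 and 4. The reads were 6, 0 and 9 in Col-0 and 6, 5 and 8 in the mutant, and the shares 0.546%, 0% and 0.751% against 1.20%, 0.510% and 1.79% (edgeR adjusted p 0.614). Mutant replicate 2 lay within the Col-0 range. MAF4, a relative of FLM, had 5.41%, 2.47% and 1.80% in Col-0 and 8.51%, 1.47% and 3.64% in the mutant, and SVP, MAF3, FPA, FY, SOC1 (AGL20 in RefSeq) and AGL31 had at most 3 skipping reads in any event. GI, a clock gene, had 6 reads, all in mutant replicate 3.

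Frame and length are described here with no test. Among annotated junctions whose skipped exons are coding throughout, 51 of 65 (78.5%) left out a multiple of 3. Of 1184 constitutive 2-exon members whose exons are coding throughout, 48.6% had a summed length that is a multiple of 3, beside 48.4% of all 13345 possible 2-exon stretches of the same kind in the host genes. For 3 exons the values were 51.8% and 47.9%. The median length of a skipped 2-exon stretch was 177 bases, beside 210 over all such stretches, and the median distance between the joined exons 574 and 606 bases. Exact ends were available for 82 members in the deposited junction table. Of their reads 96.2% joined the exon ends of the deposited model, and among the 18 constitutive ones 69.5%. Whether a shifted end is an annotated splice site was not checked. Each of the 82 was listed with more than 1 pair of ends, 209 pairs in all. Members thus entered only where shifted ends were seen, and these percentages do not extend to other members. For GGT1 none of the 60 listed reads joined the exon ends of the model, and 56 of them shared 1 pair of shifted ends.

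Introns inside the skipped stretches were retained more often in the mutant, as introns were in general. Of 8008 tested introns inside members 5423 rose and 1 fell (67.7% called), against 62.3% of all 94773 tested introns called higher and 0.0538% called lower (limma, adjusted p under 0.05). The median log2 change was 1.91 inside members and 1.83 over all. Inside constitutive stretches the median retention was 0.276%, 0.230% and 0.178% in Col-0 and 1.37%, 1.35% and 1.79% in the mutant, with no overlap. Inside annotated junctions it was 2.68%, 2.33% and 2.05% in Col-0 and 6.04%, 7.28% and 6.40% in the mutant. Mutant replicate 2, whose summed skipping share of constitutive stretches lay within the Col-0 range, was above Col-0 in retention inside them.

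**Figure D4:**
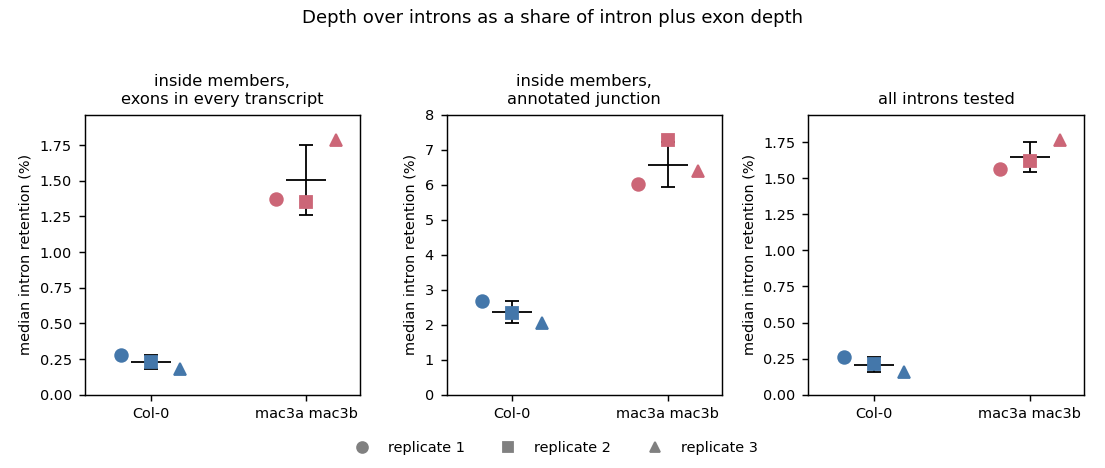
Median intron retention in percent (intron depth over intron plus exon depth, y axis starting at 0) per library for introns inside constitutive stretches, inside annotated junctions and for all tested introns (blue Col-0, red mac3a mac3b; mean and SD of 3 libraries). All 3 mutant libraries lie above all 3 Col-0 libraries in every panel.

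Expression of the host genes was close to that of other genes. Of 1914 tested genes with a member 1 passed, GPX7, which rose by 2.09 ± 0.19 on the log2 scale (SE; limma adjusted p 0.0377), against 0.105% of all 17163 genes called. No host gene passed when any 1 library was left out. With the replicate number as a block 83 passed (49 higher and 34 lower, 4.34%), against 4.52% of all genes. The median log2 change was 0.01 for host genes and 0.01 for all tested genes. Host genes had a median level of 18.0 RPKM, beside 10.6 over all tested genes. In bulk leaf tissue, a change in the cells that express a gene and a change within those cells cannot be told apart.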

How the data were processed

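The authors deposited tables for poly(A) RNA-seq of 3 Col-0 and 3 mac3a mac3b libraries. The submitters' processing notes name Trimmomatic, Bowtie2, DESeq2 and TAIR10, without their roles, and per the file names the splicing tables come from RackJ. Skipping, inclusion and unique reads were deposited as whole-number counts. Intron and exon values were deposited as coverage depth. Gene levels carry no unit in the deposited file and were read as RPKM, because value times length was proportional to unique reads within 1% in at least 97.9% of genes. Gene and intron lengths were used as the authors deposited them.

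Members and gene lists were chosen with earlier results of these data known. All 12382 events with 10 reads in each library were fitted with the edgeR 4.0.16 quasi-likelihood interaction of genotype and read kind. Introns were fitted with limma 3.58.1 on log2 depth ratios (pseudocount 0.5), and genes on log2(RPKM + 1) with a mean of at least 1. Benjamini-Hochberg adjustment ran over each whole table, with a threshold of 0.05. DESeq2 1.42.0 was an alternative. Group values were compared by two-sided exact permutation over libraries in Python 3.11.15. R was version 4.3.3. The fits were tested on simulated data. Exon numbers were placed on TAIR10.1 by intron lengths, which all matched in 18414 of 18772 genes. Limits of a count of 0 use 3 counts and, like the read counts, cover counting error only.

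Named events were those called in the main test, with the replicate block or at 60 reads of each kind, the 10 largest non-overlapping share differences, the 8 highest Col-0 shares, the 6 longest skips, and members with 10 reads in the gene lists. Those chosen after their values were seen are named as such. Equal replicate numbers deviated together in gene expression (r = 0.62, 0.78 and 0.43), so the numbers were taken to pair the libraries. In skipping of the members with 60 reads of each kind the correlations were -0.18, 0.39 and 0.12.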

Additional observations from a re-analysis of the deposited data

How the results depend on the processing

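The number of members called (1 by edgeR) was 9 with limma, 3 with TMM scaling, 0 at 60 reads of each kind, and 0 to 1 when a library was left out. DESeq2 also called FBA1 (adjusted p 0.0228). Leaving out 1 library moved the FBA1 adjusted p between 0.001 and 0.692. The mutant minus Col-0 difference in summed share (-0.0556 percentage points) reversed to 0.337 as a mean over members, and the log2 ratio of multi-exon to single-exon share (-0.12) to 0.081 as a mean over events. These means weight rare events equally, by construction. The count of members with reads in the mutant only (30) was 8 with 2 reads in each library and 48 without mutant replicate 3. Called host genes (1) were 2 with a pseudocount of 0.1, 0 without a filter on low values, 0 to 0 when a library was left out, and 0 with edgeR on unique reads, where 164 had an unadjusted p under 0.05. They were 83 once replicate numbers entered as a replicate block, and 74 by edgeR on unique reads. The cause was not tested. The replicate block also moved FBA1 at 60 reads of each kind (adjusted p 0.0845 without and 0.0145 with it) and 1 FBA1 intron (0.0314 and 0.0574), and changed no other call of an event or intron described with a p: 1 member passed with it, and the summed differences had a sign-flip exact p of 0.25, the smallest that 3 pairs allow. Of 5423 introns inside members called higher, 5121 were also called with the block, which called 5312. Depth limits many members, since 1290 of 2610 rest on a single read.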
